A study of Mus musculus with 6 samples.

Results

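Cytosolic ribosomal protein genes encode the protein components of the large and small subunits of the ribosome, and they were compared between RNA bound to tagged ribosomes and unbound RNA of mouse cortex. Members were all array probe sets whose single gene symbol has the form of a large subunit protein (Rpl, Rplp) or a small subunit protein (Rps, Rpsa), with ribosomal S6 kinases and pseudogene symbols left out. This gave 100 probe sets of the 45101 on the array, 44 for the large and 56 for the small subunit. They stand for 46 genes, 24 large and 22 small, of 18193 genes that have a probe set of their own. A further 110 probe sets carry a ribosomal protein symbol among several symbols, mostly beside a pseudogene or a predicted gene, and lie outside the rule. Rplp1 and Rpl5 are read only by such sets and were therefore not analysed here as genes, and Rps27a was not analysed here either.

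The study used translating ribosome affinity purification (TRAP), in which a tag on a ribosomal protein, expressed in chosen cells from a bacterial artificial chromosome (BAC), lets ribosomes and the mRNA on them be pulled out of a tissue lysate. The TRAP group held 3 samples of ribosome-bound RNA from cortex of the line ES691, whose S100a10 driver marks a group of cortical pyramidal neurons. The unbound group held 3 samples of what the pull-down left of the whole cortex lysate. The titles name this RNA input, while the descriptions and the design text name it unbound, and it is called unbound here. Both groups came from the same transgenic line, which was backcrossed for 3 to 5 generations to C57BL/6 from FVB, and no animal was treated. The number, age and sex of the animals behind each sample are not given, so p-values cover only the spread among the samples, which may be partly technical. The series text states that the S100a10 BAC also labels some cells that are not neurons. All samples were amplified from 15 ng of RNA in 2 cycles and measured on Affymetrix arrays, so the number of arrays limits the precision.

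Cells make the ribosomal proteins in near equal amounts, and the mRNAs of most of them are controlled together at the level of translation. Their transcripts begin with a run of pyrimidines, the 5′ terminal oligopyrimidine (TOP) tract, through which the kinase complex mTORC1 and the RNA-binding protein Larp1 set how many of them sit on ribosomes. In neurons ribosomal protein mRNAs are also carried into axons and dendrites, and part of them is held off ribosomes.

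The driver gene S100a10 was higher in TRAP RNA, the summed pyramidal neuron markers were lower, and RNA of other cells was present. S100a10 itself, by its brightest probe set, had intensities of 14362, 15087 and 12934 in TRAP and 2950, 2174 and 2165 in unbound RNA, a 5.86-fold difference. The summed intensity of 12 meningeal fibroblast markers ranged from 38370 to 43067 in TRAP and from 1579 to 1877 in unbound RNA. Of these, Col1a1 was under the level minimum, and 11 of 11 tested were called higher. The summed intensity of 9 pyramidal neuron markers ranged from 17321 to 18252 in TRAP and from 22105 to 25032 in unbound RNA, with 3 called higher and 4 lower. Oligodendrocyte markers summed to 9127 to 14741 in TRAP and 52634 to 58300 in unbound RNA, and 8 of 9 were called lower. Of astrocyte markers 5 of 8 and of microglial markers 6 of 7 were called lower, and both red blood cell markers read were under the level minimum. The 7 choroid plexus markers, of which 4 were tested, summed to 893 to 1091 in TRAP and 275 to 3084 in unbound RNA. The part of these cell types in the ribosomal protein results was not tested. The median intensity over all probe sets was 31.4 to 31.8 on TRAP arrays and 42.4 to 43.1 on unbound arrays, so lower TRAP values were more frequent over the whole array.

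The 22 tested large subunit genes lay on the higher side in TRAP RNA, with a median log2 difference (TRAP minus unbound) of 0.30. Of them, 9 rose and 0 fell. Shared probe sets outside the rule are not in these counts, and among them Rpl36 was called higher and Rpl9, Rpl30 and Rpl31 lower. The 20 tested small subunit genes were split, with a median of 0.04, 4 that rose and 5 that fell. A gene was called where limma's p-value, adjusted over all 12070 genes tested, was under 0.05, and over all those genes 23.3% were called higher and 45.7% lower, around a median of -0.21. Genes with a group mean of at least 1000, a level most members exceed, gave 23.4% higher and 44.3% lower and a median of -0.18. Without rescaling, 12 large and 12 small subunit genes differed by less than 1.25-fold, as did 4316 of all genes, or 35.8%. Centred on kept probe sets these were 5 large and 9 small subunit genes, and centred on all probe sets 0 and 5. In each subunit 1 gene, Rpl39l and Rps27l, differed by 2-fold or more without rescaling, as did 2501 of the 12070 genes tested. Rpl39l, counted among the 9 that rose, passed the level minimum only through TRAP, so its direction is tied to the minimum. The 21 other large subunit genes gave 8 higher and 0 lower, with a median of 0.30. In bulk RNA, a smaller share of a cell type and less RNA per cell cannot be told apart.

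**Figure D1:**
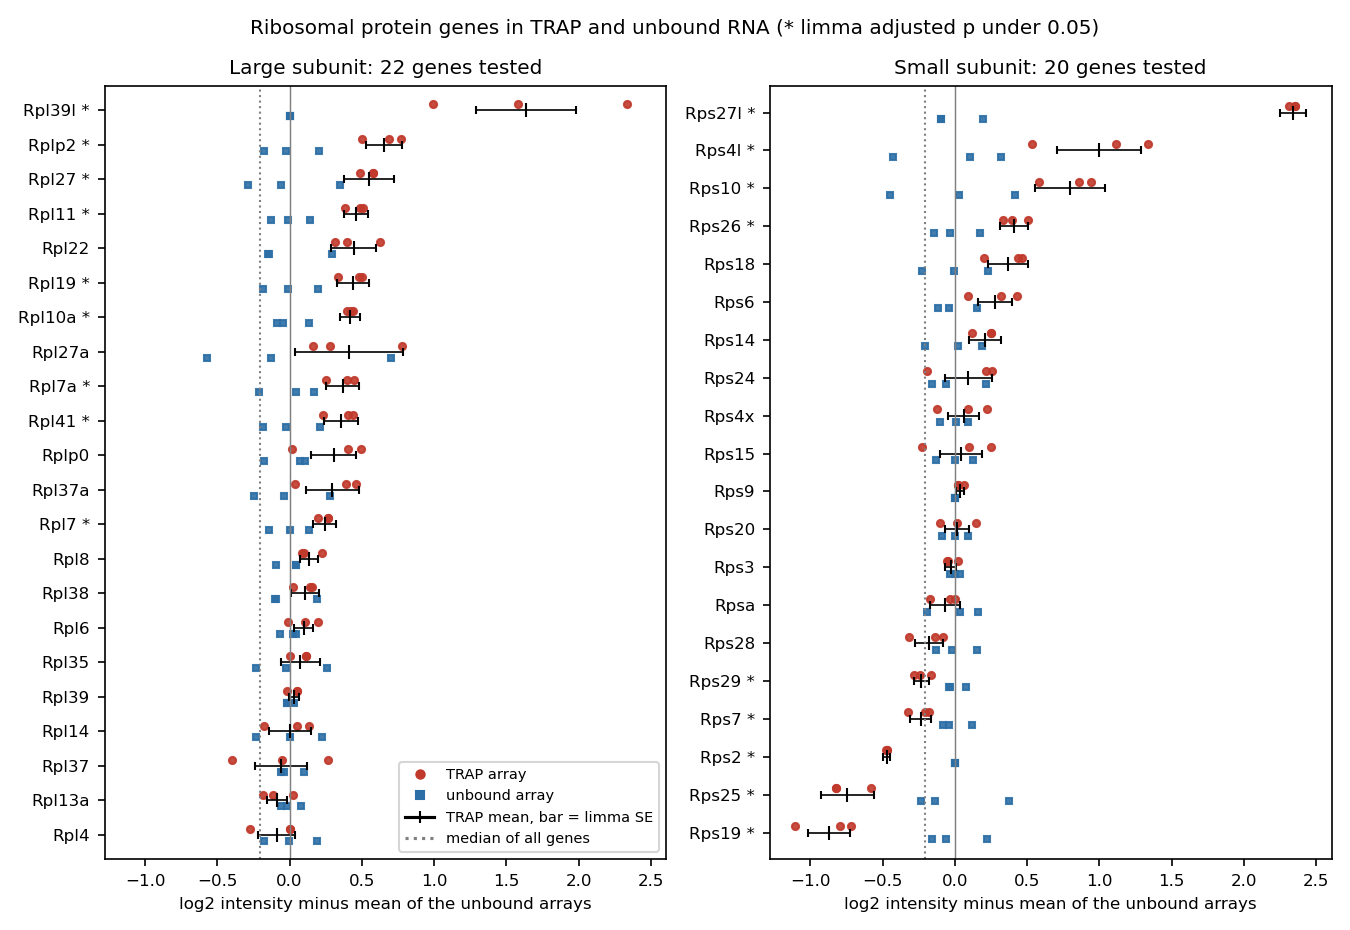
Log2 intensity of each tested member gene on the 3 TRAP arrays (circles) and the 3 unbound arrays (squares), relative to the gene's unbound mean, for the large (left) and small subunit (right). The cross marks the TRAP mean with limma's standard error, an asterisk a called gene and the dotted line the median of all genes, -0.21, above which 37 of the 42 members lie.

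The median large subunit gene stood 0.34, 0.14 and 0.33 above its unbound mean (log2) on the 3 TRAP arrays and at 0.15, -0.14 and -0.02 on the unbound arrays. For the small subunit the medians were 0.12, -0.12 and 0.06 on TRAP arrays and 0.16, -0.11 and -0.02 on unbound arrays. Taken without regard to their numbers, TRAP and unbound arrays overlapped in both subunits, narrowly in the large one, where the lowest TRAP array was under the highest unbound array. Between same-numbered arrays, the large subunit medians differed by 0.18, 0.27 and 0.35, each with TRAP above, and the small subunit medians by -0.04, -0.01 and 0.08. The median of all genes was -0.20, -0.21 and -0.21 on TRAP arrays and between -0.01 and 0.01 on unbound arrays. Relative to the median of all genes, the large subunit stood 0.51 and the small subunit 0.24 higher, and with arrays quantile-normalised again 0.36 and 0.07.

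The scaling between the groups set where 0 lies, and so the number of calls. With each array centred on its median, 20 large subunit genes were called higher and 0 lower, and 17 small subunit genes higher and 1 lower, where 47.3% of all genes were higher and 22.3% lower. With arrays centred on the kept probe sets, the counts were 17 and 0 in the large and 11 and 3 in the small subunit, beside 37.2% higher and 30.4% lower of all genes. With quantile normalisation they were 13 and 0 in the large and 6 and 4 in the small subunit, beside 34.1% and 33.0%. The large subunit had the higher median without rescaling and also with quantile normalisation, where the medians were 0.37 and 0.07. Centring moves all genes of an array by the same amount, so it could not change this order. Without rescaling, 18 of the 42 members were called in either direction, where 69.0% of all genes were.

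**Figure D2:**
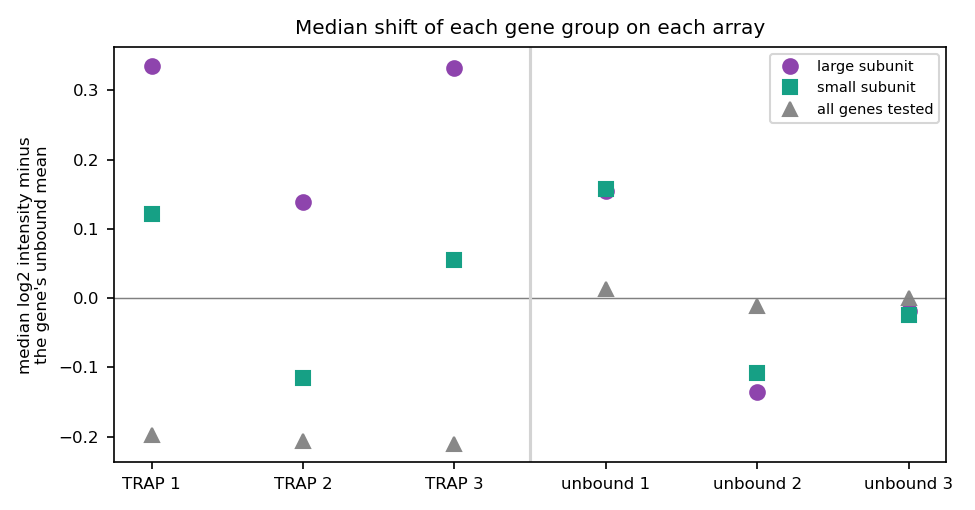
Median over the tested genes of log2 intensity minus the gene's unbound mean, for the large subunit (circles), the small subunit (squares) and all 12070 genes (triangles), on each TRAP and unbound array. All genes sit at about -0.21 on every TRAP array, while the large subunit reaches 0.14 to 0.34 there.

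Start sites of member genes are shown because the pyrimidine tract at the start of these mRNAs is the feature they are known to share, and the members called in each direction can be set beside each other by it. Each window holds 10 bases before and 20 from the start annotated by RefSeq (GRCm38.p6) in the direction of transcription, and capitals mark the longest run of pyrimidines in the window. Those of 5 genes higher in TRAP RNA are followed by those of 3 genes lower in TRAP RNA.
Rplp2 (chr7:141447641-141447670, plus strand): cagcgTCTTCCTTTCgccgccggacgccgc
Rps10 (chr17:27635225-27635254, minus strand): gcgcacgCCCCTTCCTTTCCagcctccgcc
Rps26 (chr10:128626487-128626516, minus strand): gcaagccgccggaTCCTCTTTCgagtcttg
Rpl7a (chr2:26910797-26910826, plus strand): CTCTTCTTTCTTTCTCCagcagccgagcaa
Rps27l start 1 (chr9:66946076-66946105, plus strand): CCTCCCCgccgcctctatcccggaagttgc
Rps27l start 2 (chr9:66946403-66946432, plus strand): gggCTTCagggtcactaacgggcctcgcag
Rps19 start 1 (chr7:24884582-24884611, plus strand): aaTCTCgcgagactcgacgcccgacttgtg
Rps19 start 2 (chr7:24884666-24884695, plus strand): cggtgagtgagggCTCTgggtcgcggctgt
Rps19 start 3 (chr7:24884903-24884932, plus strand): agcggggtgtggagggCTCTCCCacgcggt
Rps25 (chr9:44407704-44407733, plus strand): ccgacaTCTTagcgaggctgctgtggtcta
Rps2 (chr17:24720053-24720082, plus strand): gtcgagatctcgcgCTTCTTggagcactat

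These windows were picked after values and sequences were seen, and the called genes did not divide cleanly: Rpl27 and Rpl41, also called higher, had longest runs of 5 and 3 bases. Long runs were also present in members that were not called. They had 20 bases in Rpl27a, 18 in Rpl35 and 14 in Rpl13a and Rpl14, named here after their values were seen. RefSeq starts can lie some bases from the start used in a tissue, and Rps19 and Rps27l have several. Of the 46 member genes, 40 had a start in the table, with 48 starts in all. The longest pyrimidine run in the window had a median of 6.5 bases over the 48 member starts and 4 bases over 32851 annotated promoters. A run of 7 or more was present at 24 of the 48 member starts, or 50%, and at 17.9% of all promoters. The 21 tested members with such a run had a median log2 difference of 0.37, and the 15 without had -0.03. This is a description of these members, with no test.

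Within 50 bases on either side of the start, the letters CTTTC occurred on the sense strand at 43.8% of member starts and 12.8% of all promoters, and on the antisense strand at 8.33% and 12.1%. Its longer form CTTTCC, which contains it, occurred on the sense strand at 27.1% of member starts and 4.69% of all promoters, and on the antisense strand at 2.08% and 4.47%. Both were more frequent at member starts than in all promoters on the sense strand and less frequent on the antisense strand. Of the 18 tested members with a sense CTTTC, 7 were called higher and 1 lower, beside 11 higher and 4 lower among all 36 tested members with a known start. The letters CTTCC were on the sense strand at 37.5% of member starts and 19.5% of all promoters, and on the antisense strand at 25% and 22.1%. CTCTTTC, which contains CTTTC, was on the sense strand at 8.33% and 1.37%, and on the antisense strand at 0% and 1.3%. For the other sense motifs the calls were 5 higher and 3 lower of 16 tested members with CTTCC. They were 4 and 1 of 11 with CTTTCC and 2 and 0 of 4 with CTCTTTC. Median log2 differences with and without the motif were 0.24 and 0.08 for CTTTC, and 0.07 and 0.19 for CTTCC. For CTTTCC they were 0.10 and 0.09, and for CTCTTTC 0.25 and 0.10. A link between motif and direction was not tested.

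Among the large subunit genes, Rpl10a encodes a protein of the L1 stalk and, as background, is the protein that usually carries the tag in TRAP mice of this type. Its probe set had intensities of 13494, 13228 and 13621 in TRAP RNA and 11063, 9457 and 9760 in unbound RNA. All TRAP values were above all unbound values, and the mean was 13448 ± 201 in TRAP and 10093 ± 854 in unbound RNA (SD, n = 3 each). Rpl10a rose 1.34-fold, with a log2 difference of 0.42 ± 0.07 (SE) and an adjusted p of 0.00349, and stayed called whichever array was left out.

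The P stalk is the flexible arm that recruits elongation factors, and Rplp2 is one of its acidic tips. It had 31329, 25963 and 29574 in TRAP RNA and 21116, 16239 and 18037 in unbound RNA, with no overlap. Rplp2 rose 1.57-fold (log2 0.65 ± 0.12, adjusted p = 0.00636), the largest increase by the brightest set among large subunit genes above the level minimum on all 6 arrays. Rplp0, the base on which the tips are mounted and a common reference gene, had 13441, 10290 and 14303 in TRAP RNA and 10953, 8991 and 10666 in unbound RNA. Its groups overlapped, since the second TRAP array was under unbound arrays 1 and 3. The log2 difference was 0.30 with an adjusted p of 0.133, and with the replicate number as a block the adjusted p was 0.0205. The probe set of Rpl12, which sits at the foot of the stalk, read 4.43 on all TRAP arrays and 57.2, 37.8 and 40.4 on unbound arrays, under the level minimum of 50, so the gene was not tested. Of the 4 stalk genes, 2 were tested and 1 rose.

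Rpl11 binds 5S rRNA together with Rpl5 and, when not built into a ribosome, the p53 regulator Mdm2. It had 13480, 12333 and 13247 in TRAP RNA and 10434, 8643 and 9394 in unbound RNA. The groups did not overlap, and Rpl11 rose 1.38-fold (log2 0.46 ± 0.08, adjusted p = 0.00511). Rpl5 is read here only by probe sets shared with its pseudogene Rpl5-ps2, and the brightest of them averaged 22094 ± 1758 in TRAP and 22351 ± 975 in unbound RNA (SD, n = 3 each), a log2 difference of -0.02 with an adjusted p of 0.827.

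Rpl19, whose long helix reaches over to the small subunit and which is also used as a reference gene, had 12144, 11029 and 12375 in TRAP RNA and 10015, 7667 and 8655 in unbound RNA. The groups did not overlap, and Rpl19 rose 1.36-fold (adjusted p = 0.0182). The call was lost without TRAP replicate 1, TRAP replicate 3 or unbound replicate 3, where the adjusted p was 0.0615, 0.0623 and 0.0599. Of the 8 listed proteins at the rim of the exit tunnel, through which the new peptide leaves, 4 were tested and Rpl19 alone was called, beside Rpl22, Rpl35 and Rpl39.

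Rpl27 has 3 probe sets above the level minimum, and each was called higher. The brightest had 9381, 8803 and 9381 in TRAP RNA and 8012, 5141 and 6016 in unbound RNA, a 1.46-fold increase (adjusted p = 0.0354). The other sets gave 2.13-fold and 2.17-fold, with means of 9096 ± 333 and 5153 ± 263 in TRAP and 4405 ± 1357 and 2394 ± 379 in unbound RNA (SD, n = 3 each). The direction was shared by all 3 sets and the size was not. The brightest set lost its call without any one TRAP array or without unbound replicate 2 or 3, where its log2 difference was 0.40 to 0.58 and the adjusted p 0.0708 to 0.104.

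Rpl39l is a paralog of Rpl39, a protein of the exit tunnel wall, and is best known from testis. Its only probe set read 82.8, 49.1 and 32.7 on TRAP arrays and 16.4 on each unbound array. TRAP was above unbound on each array, but only the first TRAP array exceeded the level minimum of 50. The log2 difference of 1.64 (adjusted p = 0.00946) therefore rests on low values, and it was 0.24 with an adjusted p of 0.368 when values under 50 were raised to 50. Rpl39 itself averaged 261 ± 7.02 in TRAP and 255 ± 4.77 in unbound RNA (SD, n = 3 each), with a log2 difference of 0.03 (adjusted p = 0.461).

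Rpl22, which has the paralog Rpl22l1 and is not needed by most ribosomes, gave probe sets that disagreed. The brightest had 15313, 12375 and 13077 in TRAP RNA and 12168, 9017 and 8968 in unbound RNA, with no overlap and a log2 difference of 0.44. Its adjusted p was 0.0501, and 0.00758 with the replicate number as a block. Over all kept probe sets a second set was called 1.32-fold higher (adjusted p = 0.0462), and another, with 1890, 1369 and 1657 in TRAP and 2399, 2045 and 2553 in unbound RNA, was called 1.43-fold lower (adjusted p = 0.0295).

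Rpl41, the smallest ribosomal protein, was read by 4 kept probe sets. The brightest had 19341, 17111 and 19766 in TRAP RNA and 16933, 12844 and 14352 in unbound RNA, a 1.28-fold increase (adjusted p = 0.0458). A second bright set rose 1.63-fold (adjusted p = 0.00709). The 2 dim sets went the other way, with 27.6, 29.3 and 27.6 in TRAP against 57.1, 59.4 and 52.1 in unbound RNA for one, and 32.8, 32.8 and 33.0 in TRAP against 119, 111 and 111 in unbound RNA for the other. They were called 1.99-fold and 3.44-fold lower. Both dim sets reached the level minimum only through unbound RNA, so their direction is tied to it. With shared-type sets left out its log2 difference was -0.996, and as the mean over its sets -0.43. The brightest set lost its call without any one array other than unbound replicate 1, at adjusted p 0.0541 to 0.129.

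The 2 other large subunit genes called were Rpl7a and Rpl7, which rose 1.29-fold and 1.18-fold, named here after their values were seen. Rpl7 has 3 kept sets and all were called higher, by 1.18-fold, 1.35-fold and 1.50-fold. Among those not called, Rpl13a, another reference gene, had 28684, 24876 and 26117 in TRAP RNA and 29751, 27915 and 27060 in unbound RNA. Those values overlapped, with a log2 difference of -0.09 (adjusted p = 0.290), and each of its 3 other kept sets was not called either. The 13 large subunit genes not called had log2 differences between -0.09 and 0.44. Groups did not overlap in 11 of the 22 large subunit genes, all with TRAP above, or in 10 of 21 without Rpl39l. Of all genes 25.9% had TRAP above and 49.6% TRAP below.

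The count of large subunit genes that rose changed when 1 array was left out. It was 4 without TRAP replicate 1, TRAP replicate 3 or unbound replicate 3, 5 without unbound replicate 2, 7 without TRAP replicate 2 and 11 without unbound replicate 1, with 0 lower in each case. Each of these fits also had fewer arrays, and no share of all genes is given for them. The weight of single arrays and the loss of arrays were not told apart.

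**Figure D3:**
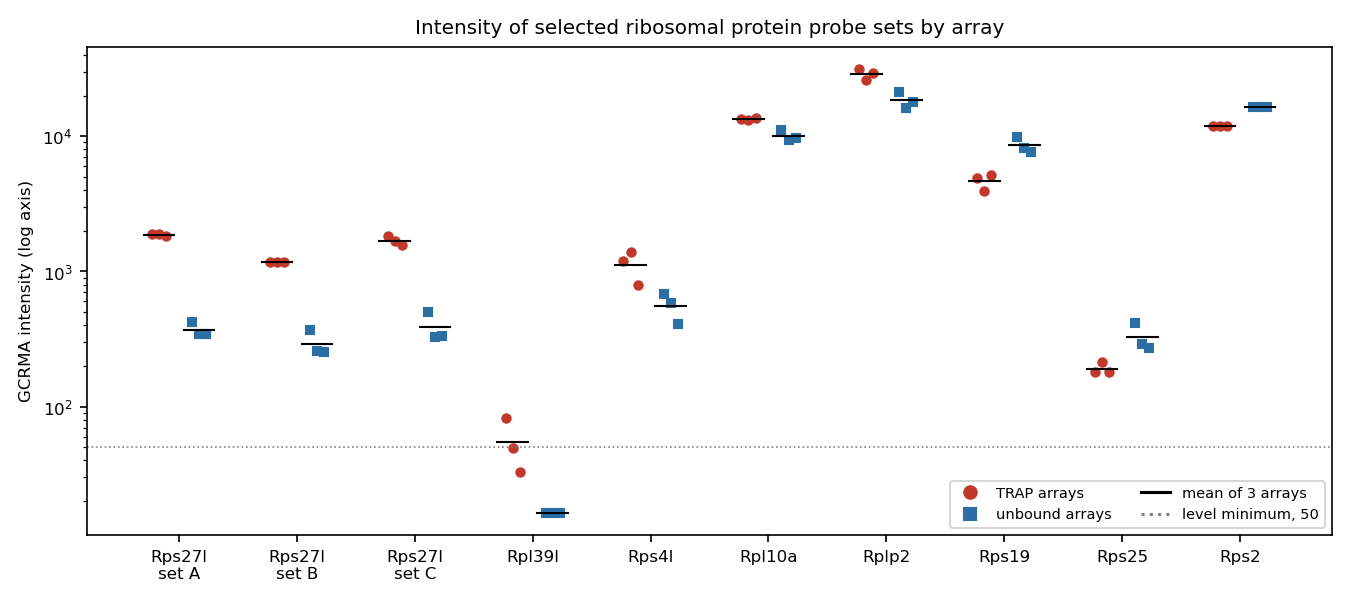
Intensity (log axis) on each array of 10 probe sets of 8 member genes, with TRAP arrays (circles) left of unbound arrays (squares), a bar at the mean of 3 arrays and a dotted line at the level minimum of 50. The 3 Rps27l sets sit at 1167 to 1887 in TRAP against 254 to 498 in unbound RNA, and Rpl39l is near the minimum.

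In the small subunit, the gene that stood furthest out was Rps27l, a paralog of Rps27 whose transcription is known to be raised by p53. Its brightest probe set had 1887, 1887 and 1836 in TRAP RNA and 422, 346 and 346 in unbound RNA. A second had 1179, 1167 and 1167 in TRAP and 367, 258 and 254 in unbound RNA, and another 1814, 1672 and 1568 in TRAP and 498, 329 and 336 in unbound RNA. In each set every TRAP array was more than 3 times as bright as every unbound array, and each set was called. Rps27l rose 5.06-fold by the brightest set (log2 2.34 ± 0.09, adjusted p = 2.2e-05) and 4.06-fold and 4.42-fold by the others. It was the only member called by the test against a 2-fold change, which called 4.53% of all genes higher and 6.56% lower.

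The partner gene Rps27 could not be set beside it by a probe set of its own. That set read 12.7 on each TRAP array and 24.2 to 28.5 on unbound arrays, under the level minimum. A set shared between Rps27 and Rps27rt had 9842, 7183 and 10596 in TRAP RNA and 9302, 6379 and 7139 in unbound RNA. These overlapped, with a log2 difference of 0.27 and an adjusted p of 0.300. The increase of Rps27l in TRAP RNA was thus not met by a called change in the shared probe set, and no test set one gene against the other.

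Rps4l, a transcribed pseudogene in RefSeq that is related to Rps4x, had 1186, 1383 and 791 in TRAP RNA and 684, 588 and 407 in unbound RNA. The groups did not overlap, with array 3 lowest in both, and Rps4l rose 1.99-fold (log2 0.99 ± 0.29, adjusted p = 0.0294). Leaving out TRAP array 1 or 2, or unbound array 2 or 3, ended the call, at log2 differences of 0.78 to 1.05 and adjusted p of 0.0707 to 0.0916. Rps4x itself averaged 18370 ± 2204 in TRAP and 17550 ± 1171 in unbound RNA (SD, n = 3 each) and was not called (adjusted p = 0.631). The heart and muscle paralog Rpl3l read 6.97 to 7.73 in TRAP and 7.63 in unbound RNA, under the level minimum. Of the 4 paralogs the symbol rule takes, 3 were therefore tested and called higher, where 23.3% of all genes were, but Rpl39l passed the level minimum only through TRAP and lost its call with low values raised to 50.

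Rps10 lies by the mRNA entry channel and is ubiquitinated when ribosomes collide. It had 11994, 9929 and 12741 in TRAP RNA and 8830, 4862 and 6761 in unbound RNA. The groups did not overlap, and Rps10 rose 1.74-fold (log2 0.80 ± 0.24, adjusted p = 0.0332). All 5 kept sets were higher in TRAP, by 1.65-fold to 1.84-fold, and 3 of the 5 were called. The unbound spread was wide, and the gene's call was lost without any one array other than unbound replicate 1, at log2 0.57 to 0.90 and adjusted p 0.0524 to 0.102.

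Rps26, a protein of the mRNA exit channel, had 4634, 4432 and 4997 in TRAP RNA and 3980, 3195 and 3446 in unbound RNA. It rose 1.33-fold without overlap (adjusted p = 0.0143, and 0.0523 without unbound replicate 3). Rps18, a head protein and reference gene, had 13091, 10905 and 12828 in TRAP and 11106, 8114 and 9457 in unbound RNA, overlapping by 1 array. Its log2 difference of 0.37 had an adjusted p of 0.0644, and 0.0128 with the replicate number as a block.

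Rps6, the substrate of S6 kinases below mTORC1, had 749, 693 and 591 in TRAP and 618, 513 and 540.3 in unbound RNA by its own probe set. These overlapped by 1 array, with a log2 difference of 0.28, an adjusted p of 0.0833, and 0.0431 with the block. The brightest set shared by Rps6 and Rps6-ps4 averaged 30940 ± 1525 in TRAP and 30549 ± 346 in unbound RNA (SD, n = 3 each), a log2 difference of 0.02 (adjusted p = 0.742).

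The 5 small subunit genes called lower were led by Rps19, a head protein whose mutation in people causes Diamond-Blackfan anaemia. It had 4918, 3968 and 5175 in TRAP RNA and 9928, 8158 and 7646 in unbound RNA. Every TRAP array was below every unbound array, and Rps19 fell by 0.87 on the log2 scale (SE 0.15, adjusted p = 0.00421), which is 1.83-fold lower. It was the only member gene called lower under each of the 4 scalings run.

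Rps25, a head protein used by viral internal ribosome entry sites, had 180, 214 and 180 in TRAP and 414, 291 and 271 in unbound RNA. Its own probe set fell 1.67-fold (adjusted p = 0.0166), and the call was lost without TRAP replicate 1 or 3 (adjusted p = 0.0593 and 0.0585) and with arrays centred on their median (log2 -0.31, adjusted p = 0.159). A far brighter set shared with 2 predicted genes had 8512, 7794 and 8316 in TRAP and 7907, 6182 and 6474 in unbound RNA, with a log2 difference of 0.27 (adjusted p = 0.0739). The 2 readings of Rps25 therefore differed in sign.

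Rps2, a protein of the mRNA entry channel, had 11885, 11913 and 11913 in TRAP RNA and 16498 on each unbound array. Identical values on several arrays arise in the deposited table for the probe sets of 11 of the 42 tested members, and the standard error of 0.02 of Rps2 is computed from them. Rps2 fell 1.39-fold (log2 -0.47, adjusted p = 5.6e-05) and was at -0.04 (adjusted p = 0.421) with arrays centred on their median.

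Rps29, a zinc-binding head protein and reference gene, had 43210, 41896 and 45480 in TRAP RNA and 53834, 49855 and 49619 in unbound RNA. All 3 of its sets were 1.16-fold to 1.18-fold lower, 2 of them called, and the gene was called (log2 -0.23, adjusted p = 0.0115), though it was called higher with arrays centred on all probe sets (log2 0.20, adjusted p = 0.0169), at 0.032 centred on kept sets and at -0.10 (adjusted p = 0.176) with quantile normalisation. Rps7, which also binds Mdm2 when free, had 15432, 13940 and 15155 in TRAP and 19004, 16486 and 16998 in unbound RNA. It fell 1.18-fold (log2 -0.24, adjusted p = 0.0340), was called higher centred on all probe sets (log2 0.20, adjusted p = 0.0454), stood at 0.028 centred on kept sets, and lost its call without any one array other than unbound replicate 2, at adjusted p 0.0551 to 0.0890. Relative to the median of all genes, Rps29 and Rps7 stood at -0.03, while Rps2, Rps25 and Rps19 stood at -0.27, -0.54 and -0.67.

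Among the small subunit genes not called, Rpsa, also known as the laminin receptor, had 5926, 5263 and 5774 in TRAP RNA and 6610, 5173 and 6051 in unbound RNA. The values overlapped, with a log2 difference of -0.07 (adjusted p = 0.598). The 11 small subunit genes not called had log2 differences between -0.18 and 0.37. Of 14 listed proteins of the head, 9 were tested, and 1 rose and 3 fell, where 23.3% of all genes were higher and 45.7% lower. After centring on kept probe sets, 4 of them were higher and 2 lower, where 37.2% of all genes were higher and 30.4% lower. Groups did not overlap in 10 of the 20 small subunit genes, 5 with TRAP above and 5 with TRAP below, where 25.9% of all genes had TRAP above and 49.6% TRAP below. The count that rose was 2 when TRAP array 1, TRAP array 2 or unbound array 2 was left out, 1 without unbound replicate 3, 4 without TRAP replicate 3 and 6 without unbound replicate 1. The count that fell was 3 when TRAP array 1 or 3 was left out, 4 when TRAP array 2 or unbound array 1 or 3 was left out, and 5 without unbound replicate 2. No share of all genes is given for these fits.

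At the level of probe sets, 84 of the 100 reached the level minimum. Of these, 25 were called higher and 12 lower, where 20.6% of all kept probe sets were called higher and 47.7% lower. The large subunit held 15 higher and 3 lower of 40, and the small subunit 10 higher and 9 lower of 44. By the design of the probe set, sets marked as unique to a transcript (_at) gave 6 higher and 4 lower of 17. Sets for several transcripts of a gene (_a_at) gave 9 and 3 of 26, and sets with probes that may match other genes (_x_at) 10 and 4 of 38. Of all kept sets of each type, 18% were higher and 52.8% lower for _at. These shares were 29.1% and 31.6% for _a_at and 27.4% and 32.2% for _x_at, so the _x_at members called higher were near the share of their type. The lower _at sets of Rpl41, Rps20 and Rps24 and a dim lower _x_at set of Rpl41 reached the level minimum only through unbound RNA. The Rpl39l set, called higher, reached it only through TRAP RNA. In the counts above, the direction of these sets is tied to the minimum. Without replicate TRAP 1, TRAP 3, unbound 2 or unbound 3, the count called higher was 13, 14, 16 and 14. No share of all kept sets is given for these fits.

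Probe sets of the same gene mostly moved together. Among 19 genes with more than 1 kept set, 13 had sets within 0.5 of each other on the log2 scale and 3 had a range of 1 or more. These 3 were Rps24, Rpl41 and Rps20, of which Rps24 and Rps20 are named here after their values were seen. One dim Rps24 set had 13.9, 15.8 and 13.9 in TRAP and 144, 112 and 132 in unbound RNA and was called 8.88-fold lower. Its 4 other kept sets were not called, and the brightest averaged 9394 ± 1531 in TRAP and 8780 ± 1213 in unbound RNA (SD, n = 3 each). For Rps20, sets averaging 35.1 and 87.7 in TRAP and 96.8 and 205 in unbound RNA were called 2.72-fold and 2.34-fold lower, while the 2 bright sets differed by 1.01-fold and 1.03-fold and were not called. The dim Rps24 set and the dimmer of the Rps20 sets reached the level minimum only through unbound RNA.

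**Figure D4:**
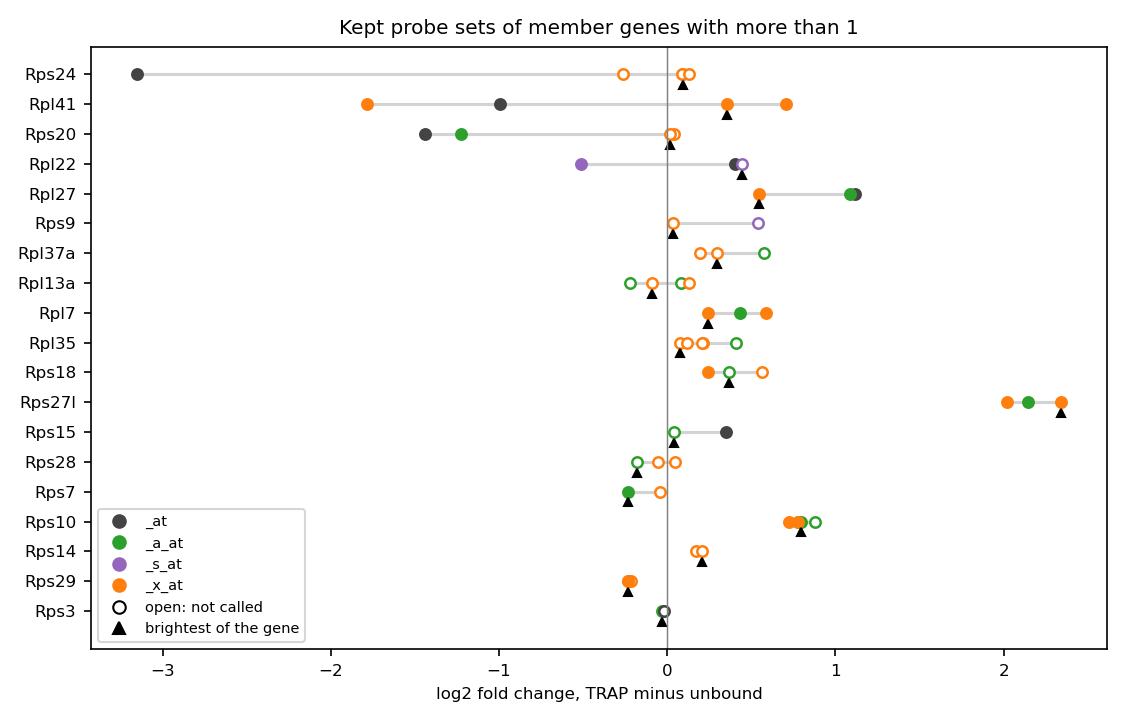
Log2 difference (TRAP minus unbound) of each kept probe set of the 19 member genes with more than 1, coloured by probe set type, filled where called and with a triangle under the brightest set. The sets of Rps24, Rpl41 and Rps20 far to the left are dim sets, and the brightest set of each lies between 0.02 and 0.36.

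Member probe sets were also grouped by brightness, as a description. Of the 10 sets with a mean of 50 to 500 over the 6 arrays, 0 had TRAP above without overlap and 5 had TRAP below, with a median log2 difference of -0.40. Of those 5, 1 set each of Rpl41, Rps20 and Rps24 reached the level minimum only through unbound RNA, so their direction is tied to the minimum. Of 19 sets at 500 to 5000, 10 had TRAP above and 1 below, with a median of 0.56. Of 53 sets at 5000 or more, 19 had TRAP above and 6 below, with a median of 0.13. The 18 sets under 50 had 3 above and 9 below. Over all probe sets of the array the medians of the same 4 classes, from dim to bright, were -0.13, -0.30, -0.20 and -0.06. In these classes TRAP was above without overlap in 31.1%, 22.6%, 23% and 27%, and below in 55%, 54.2%, 47.4% and 40.5%. Of the 4 member classes only the brightest holds 20 sets or more, and sets of 1 gene share their source.

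Genes that work with ribosomal proteins are given by list, and their counts can be read against the 23.3% of all genes called higher and 45.7% lower. The counts of each list moved with the scaling, and so did those of all genes, so rescaled counts need the rescaled shares. Of all genes, 37.2% were higher and 30.4% lower centred on kept probe sets. These shares were 47.3% and 22.3% centred on all probe sets, and 34.1% and 33.0% with quantile normalisation. Of 10 ribosomal protein genes and relatives that the symbol rule leaves out, 5 were tested, with a median log2 difference of 0.40, 2 higher and 0 lower. There were 4 higher when arrays were centred on kept probe sets. Rpl7l1, a protein of large subunit precursors, rose 1.73-fold (adjusted p = 0.0206) and Rps19bp1, a partner of Rps19 in small subunit assembly, rose 1.63-fold (adjusted p = 0.00319). Fau, which encodes a small subunit protein fused to a ubiquitin-like domain, was at 0.40 (adjusted p = 0.0712). Rpl22l1, the paralog of Rpl22, was at 0.07 (adjusted p = 0.494).

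Other mRNAs with a known TOP tract gave 4 higher and 9 lower of 18 tested, with a median of -0.21, the same as all genes, beside 23.3% higher and 45.7% lower of all genes. Centred on kept probe sets they gave 6 higher and 5 lower, and centred on all probe sets 9 and 4. Those that rose most were Snhg1, a host of small nucleolar RNAs, at 1.48-fold, the splicing regulator Hnrnpa1 at 1.36-fold and the elongation factor subunit Eef1d at 1.34-fold. Gas5, another small nucleolar RNA host whose own transcript is a target of decay on ribosomes, averaged 2210 ± 175 in TRAP and 5520 ± 429 in unbound RNA (SD, n = 3 each), 2.50-fold lower (adjusted p = 1.3e-04). The initiation factor Eif4b was 1.92-fold and the poly(A)-binding protein Pabpc1 1.91-fold lower (adjusted p = 0.00647 and 1.9e-04). The difference between this list and the ribosomal protein genes was not tested.

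**Figure D5:**
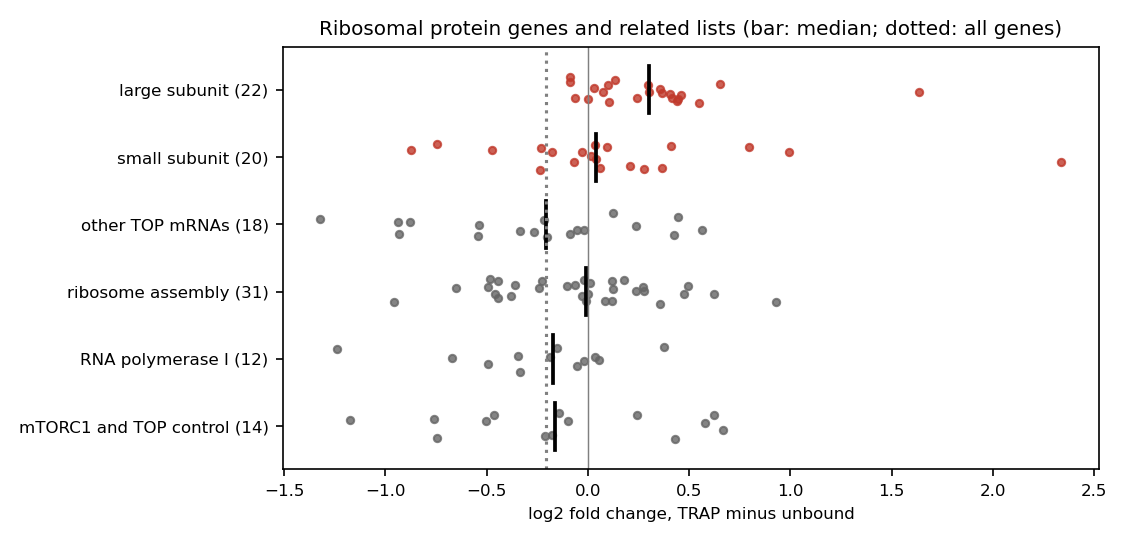
Log2 difference (TRAP minus unbound) of each tested gene in the large subunit, the small subunit and 4 related lists, with the number tested in brackets, a bar at each median and a dotted line at the median of all genes. The large subunit median is 0.30, and the medians of the 4 lists drawn below the subunits lie between -0.21 and -0.01.

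Ribosome assembly factors gave 7 higher and 9 lower of 31 tested, with a median of -0.01, where 23.3% of all genes were higher and 45.7% lower. This balance turned with the scaling, which also moved the shares of all genes as given above. It was 16 higher and 4 lower centred on kept probe sets, 18 and 0 centred on all probe sets and 14 and 5 with quantile normalisation. Nip7 and Ebna1bp2, which act on large subunit precursors, and Eif6, which keeps the new large subunit from joining, rose 1.91-fold, 1.54-fold and 1.41-fold. Utp20 and Heatr1, of the small subunit processome, and the nucleolar protein Ncl were 1.94-fold, 1.41-fold and 1.57-fold lower. Of 12 RNA polymerase I genes, which serve the transcription of ribosomal RNA, 1 rose and 4 fell, with a median of -0.17, beside the same shares of all genes. Centred on kept probe sets 4 were higher and 3 lower, and centred on all probe sets 5 and 2. The one that rose was Polr1d (1.30-fold), a subunit shared with RNA polymerase III, and the promoter factor Taf1a, the catalytic core subunit Polr1b and the initiation factor Rrn3 were 2.36-fold, 1.59-fold and 1.41-fold lower.

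In the mTORC1 pathway, which controls translation of TOP mRNAs, 5 of 14 tested genes rose and 6 fell, with a median of -0.16, beside 23.3% higher and 45.7% lower of all genes. Centred on kept probe sets 5 were higher and 4 lower, and centred on all probe sets 6 and 3. The genes that rose most were 3 that restrain the pathway's output: Akt1s1 and Deptor, inhibitors of the complex, at 1.59-fold and 1.50-fold, and Eif4ebp1, the repressor of cap-dependent translation, at 1.54-fold. The kinase gene Mtor averaged 670.4 ± 10.6 in TRAP and 1514 ± 116 in unbound RNA (SD, n = 3 each), a log2 difference of -1.17 (adjusted p = 6.8e-05). Its partner Mlst8 was at -0.76 and Tsc1, of the complex that holds mTORC1 back, at -0.75. Larp1, which binds the TOP tract, was at -0.51 (adjusted p = 0.0206) and, centred on kept probe sets, at -0.24 (adjusted p = 0.183), named here after its value was seen.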

How the data were processed

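The deposited table holds 6 columns of intensity on a linear scale, which the authors made with GCRMA per the submitters' processing notes. Its version, and whether the 6 arrays were processed in 1 run, are not given in the sources used here. GCRMA corrects background, quantile-normalises and summarises probes by median polish, which can give arrays the same value. The TRAP and unbound medians differ all the same, so the scale between groups is not settled, and other scalings were tried. All columns were used (0 left out).

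Groups and replicate numbers came from the sample labels, and gene names from GEO's platform annotation. All 46 member genes matched a RefSeq gene by ID, which changed 0 symbols. The deposited intensities were taken to log2 without a pseudocount. A probe set needed a mean of 50 or more in either group, following the limit in the series text. This left 22591 probe sets and 12070 genes, each gene by its brightest probe set. The 4 member genes below it, Rpl12, Rpl3l, Rps16 and Rps27, were not tested.

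Log2 differences (TRAP minus unbound) were fitted in limma 3.58.1 (R 4.3.3, lmFit, then eBayes, a two-sided test with no covariate). P-values were adjusted by Benjamini-Hochberg across the whole gene table, or across all kept probe sets for single sets. Adjusted p-values are from this test. The fit was tested on simulated data. The members and gene lists were chosen with earlier results of these data known.

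Genes were named by a rule: Rpl10a, stalk and 5S RNA binding genes, paralogs, per subunit the 6 called members that moved most in each direction, genes whose probe sets disagree, the reference genes Rpl13a, Rplp0, Rps18, Rpl19 and Rps29, Rps6, Rps27a and Rpsa, and up to 3 called genes per direction of each related list. Genes named beyond it are marked in the text, apart from comparison partners such as Rpl39, Rps4x and Fau.

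Same-numbered TRAP and unbound samples deviated together from their group means, with correlations across all genes of 0.50, 0.46 and 0.37 (over the member genes alone -0.30, 0.40 and 0.42), so the numbers were taken to pair the samples, from the data and not from the labels. The main fit and the fits without 1 array do not use this pairing, and blocked values are given where they change a call. Alternatives covered the replicate block, filters, scaling, the variance model, probe set choice and leaving out each array. Start windows and motifs came from RefSeq promoters (GRCm38.p6).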

Additional observations from a re-analysis of the deposited data

How the results depend on the processing

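Centring arrays on all probe sets shifted every log2 difference by 0.43, centring on kept probe sets (chosen after seeing the data) by 0.26, and quantile normalisation moved the median of all genes by 0.21. With all probe sets centred, large subunit genes gave 20 higher, small subunit genes 17 higher and 1 lower, medians of 0.73 and 0.47, and member probe sets 69 higher and 6 lower, while 47.3% of all genes were higher and 22.3% lower. Centred on kept probe sets, the counts were 17 higher, 11 higher and 3 lower, and 55 probe sets higher, with medians of 0.56 and 0.30, where 37.2% of all genes were higher and 30.4% lower. Quantile normalisation gave 39 probe sets higher, with 34.1% of all genes higher and 33.0% lower. Signs turned for 8 of the 42 members with all sets centred and for the same 8 with kept sets centred: Rpl13a (0.34 and 0.17), Rpsa (0.37 and 0.20), Rps29 (0.20 and 0.032), Rps7 (0.20 and 0.028), Rpl37, Rpl4, Rps3 and Rps28. With quantile normalisation Rpl37, Rps3 and Rpsa turned. Rpl41 turned to -0.996 with _x_at, _s_at and _a_at sets left out and -0.43 as the mean over its sets.

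Against a 2-fold change, 0 large subunit genes rose, 1 small subunit gene rose and 0 fell, where 4.53% of all genes were higher and 6.56% lower. By probe set, 3 were higher and 2 lower. Rpl10a then kept its log2 difference of 0.42 with an adjusted p of 1. With _x_at, _s_at and _a_at sets left out, 9 large subunit genes gave 4 higher and 1 lower, 8 small subunit genes 2 higher and 3 lower, and 17 probe sets 6 higher and 4 lower. Of those lower, Rpl41, Rps20 and Rps24 were then read by dim sets that reached the level minimum only through unbound RNA. Rpl39l, among those higher, reached it only through TRAP RNA. Their direction here is tied to the minimum. With no filter 1 large subunit gene and 19 probe sets were lower, as was 1 large subunit gene by the mean over sets. With a mean of 1000 or more, 6 probe sets were lower. With repeated values left out, 1 small subunit gene and 2 probe sets were lower. No share of all genes or probe sets is set beside the counts of these filters and probe set choices, so they describe the fits only. Without the paralogs, an alternative chosen after seeing the data, 2 small subunit genes were higher.

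Leaving out 1 array at a time, large subunit genes called higher ranged from 4 to 11 and lower from 0 to 0, small subunit genes higher from 1 to 6 and lower from 3 to 5. The medians ranged from 0.19 to 0.40 and from -0.01 to 0.12, Rpl10a from 0.37 to 0.49 with adjusted p up to 0.0173, and probe sets from 13 to 33 higher and 9 to 12 lower. With the replicate number as a block, all 18 member genes called without it were called and 4 more, 22 in all. Large subunit genes then gave 11 higher and 0 lower, small subunit genes 6 higher and 5 lower, and no call was lost. No share of all genes or probe sets is given for the block or for the fits without 1 array. The cause of these changes was not tested. The 3 arrays per group and repeated values limit the error estimate, and values under 50 have little signal over background.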

Other observations

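Of the 110 probe sets that name a ribosomal protein among several genes, 99 were kept, and 13 were called higher and 20 lower, where 20.6% of all kept probe sets were higher and 47.7% lower, with a median log2 difference of 0.04 (range -3.86 to 2.75). The sets below were chosen after their values were seen. Some large subunit genes were called lower by bright shared sets. Rpl30 had 11459, 8848 and 10331 in TRAP RNA and 15793, 14538 and 14538 in unbound RNA, 1.47-fold lower (adjusted p = 0.00679). The brightest shared sets of Rpl9 and Rpl31 were 1.17-fold and 1.09-fold lower (adjusted p = 0.00161 and 0.0201). Rpl36, a large subunit protein read together with its pseudogene Rpl36-ps12, was called higher by all 3 of its sets. The brightest of the 3 had 9070, 6677 and 9058 in TRAP RNA and 6033, 3745 and 4429 in unbound RNA, 1.76-fold higher (adjusted p = 0.0246), and the others were 1.97-fold and 1.72-fold higher. The P stalk protein Rplp1, read together with Gm13777, had 15264, 14404 and 15182 in TRAP RNA and 17066, 17066 and 17054 in unbound RNA. Its log2 difference was -0.19 (adjusted p = 0.00439), on the other side of 0 from its stalk partner Rplp2 without rescaling. This side depends on the scaling, since centring on kept or all probe sets raises every log2 difference by 0.26 or 0.43. The median of all kept probe sets was -0.25.

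The set with the largest increase, shared by Rpl13 and Tax1bp3, averaged 6315 ± 780 in TRAP and 936 ± 71.4 in unbound RNA (SD, n = 3 each), 6.72-fold higher (adjusted p = 2.6e-05). The brightest set shared by Rpl13 and Rpl13-ps6 alone averaged 13896 ± 1106 in TRAP and 13082 ± 1321 in unbound RNA (SD, n = 3 each) and was not called (adjusted p = 0.459). For Rps13, a dim set had 5.19, 5.33 and 5.33 in TRAP and 138, 53.8 and 60.4 in unbound RNA, while the brightest had 22821 on each TRAP array and 21012, 20147 and 19903 on unbound arrays, a log2 difference of 0.17 (adjusted p = 0.00589).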
